A study of Mus musculus with 14 samples.

Results

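Ctnnb1 encodes beta-catenin, and 8 of the 75761 cytosines in the deposited table of methylation levels are assigned to it, all rows that name this gene. The gene was chosen by earlier results of these data. At its promoter site, -30 bp from the transcript start, the levels in DIO-LFD and DIO-VSG mice against those in DIO-HFD mice drew attention to it. The levels at that site are therefore given as a description, without a test, and so are the comparisons of DIO-LFD and DIO-VSG with DIO-HFD mice at all 8 sites.

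The samples were contralateral mammary fat pads of 14 female wild-type C57BL/6NCrl mice, bought at 8 weeks of age. Throughout, the 3 CON-LFD mice were fed 10% of energy as fat. The other 11 mice were fed 60% of energy as fat for 15 weeks, after which the 4 DIO-HFD mice stayed on it, the 3 DIO-LFD mice changed to the 10% fat diet, and the 4 DIO-VSG mice received a vertical sleeve gastrectomy together with that change. The other mice had a sham operation. Tumor cells of the E0771 mammary cancer line were placed in the opposite fat pad of every mouse 7 weeks after the operation, and tissue was taken 4 weeks later. The labels also name E0771 as the cell line of these samples, although the DNA came from the fat pad without a tumor. The fat pad holds adipocytes, epithelium, vessels and immune cells, so each level is an average over cell types whose shares were not measured here.

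Beta-catenin has a pair of roles. At the membrane it links cadherins to alpha-catenin in adherens junctions, and in the cytoplasm a destruction complex marks it for degradation unless a Wnt signal is received. Stabilized beta-catenin enters the nucleus, where it acts with TCF/LEF factors, and in fat this signal is known for holding back the formation of adipocytes. A CpG island is a stretch rich in CpG dinucleotides. Islands at gene starts are usually little methylated, and methylation of a promoter island is commonly linked to a silent gene.

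Reduced-representation bisulfite sequencing (RRBS) cuts DNA with MspI at CCGG and gives, for each cytosine near the cut ends, the share of reads that were methylated. The levels are printed here as percent. Without read counts in the table, the depth is unknown, and the level of a single mouse carries no interval. In mm10, Ctnnb1 lies on the plus strand of chromosome 9 from 120929216 to 120960507, with 15 transcripts in GENCODE M21. The main transcript starts at 120933400 and has 15 exons, and distances below are counted from that start. The coding sequence begins in exon 2, which starts at 120950173. All 8 sites thus lie ahead of the coding sequence, within 2033 bp, and no site of the table within 2000 bp of the promoter site is assigned to another gene.

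The promoter site is the cytosine at position 120933370 of chromosome 9. It lies within CCGG, in a promoter and a CpG island by the flags of the table. The 250 bases ahead of the transcript start (mm10, plus strand, chr9:120933150-120933399) are shown because the site lies in them, with the CCGG of the site in capitals and the measured cytosine as its second letter.
Ctnnb1 upstream sequence: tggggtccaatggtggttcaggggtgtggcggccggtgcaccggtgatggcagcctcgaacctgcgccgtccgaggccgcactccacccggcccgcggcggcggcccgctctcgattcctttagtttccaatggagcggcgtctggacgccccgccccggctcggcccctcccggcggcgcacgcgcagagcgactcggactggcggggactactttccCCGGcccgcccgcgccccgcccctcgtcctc

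The window holds 35 CpG dinucleotides and 74.8% G or C. Of 32851 mouse promoter windows of the same length in RefSeq (GRCm38.p6), the median had 6 CpG, and 2.97% had at least 35. It holds 6 copies of CCGG, which 47.1% of these promoters have at least once. It also holds 3 copies of GGGCGG, the core of a GC box, searched on both strands and present in 32.7% of promoters. TATAAA, the core of a TATA box, was not in this window on either strand, and 12.4% of promoters have it. Of the 6 CCGG in the window, 1 has a level in the table. The next CCGG upstream of the site is 48 bp away and the next downstream 172 bp away, where the fragments collected were 40 to 170 bp long.

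Around the promoter site the table is sparse. The nearest measured neighbor upstream is 915 bp away, at position 120932455 (-945 bp), and the nearest downstream is 172 bp away, at 120933542 (+142 bp). A further site at 120932360 lies at -1040 bp. Both sites upstream of the promoter site lie outside the CpG island, and the one at -1040 bp has no promoter flag. The site at +142 bp is in exon 1, in the 5' UTR of the main transcript. The other 4, at 120933658 (+258 bp), 120934129 (+729 bp), 120934285 (+885 bp) and 120934393 (+993 bp), are in intron 1. These 5 downstream sites all have promoter and CpG island flags in the table, which measures them from another transcript start and lists them at -36, 82, 553, 709 and 817 bp.

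Shown for their contrast with the promoter site are its nearest measured neighbors on both sides, the site with the same local CpG density (+258 bp) and the most variable site (+729 bp), with 10 bases on each side of the CpG, as on the plus strand. Capitals mark the CCGG that holds the measured cytosine or, at -945 bp, the CpG alone, because that is the only 1 of the 8 sites outside a CCGG.
Site at -945 bp: cacagagttaCGgtgatatgtc
Site at +142 bp: gcccgcggcCCGGggaggcgga
Site at +258 bp: cgcggcgggCCGGctcgcgccg
Site at +729 bp: gacgagtcaCCGGccactcctg

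Local CpG density was high at the promoter site, with 22 CpG within 50 bp on either side, the same as at +258 bp. It was 15 at +142 bp, 9 or 10 at the 3 sites further into intron 1, and 1 or 2 at the 2 upstream sites. CpG density alone did not order the levels, since the promoter site and the site at +258 bp had the same density, with the lowest mean level and one of the highest.

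At the promoter site, the DIO-HFD mice were at 27.6%, 19.3%, 19.7% and 13.5%, a mean of 20.0% ± 5.78 (SD, n = 4). The CON-LFD mice were at 14.3%, 30.4% and 11.8%, a mean of 18.8% ± 10.1 (SD, n = 3). All 3 DIO-LFD and all 4 DIO-VSG mice are listed at 0. CON-LFD and DIO-HFD mice overlapped widely at this site, with a difference of means of -1.18 percentage points (CON-LFD minus DIO-HFD). Both groups that had been obese and then ate the low-fat diet lay below every mouse of the other groups, with a mean difference of -20.0 percentage points from DIO-HFD and -18.8 from CON-LFD mice. The order of the group means was DIO-HFD and CON-LFD, which did not differ beyond their spread, and then DIO-LFD and DIO-VSG, which were equal. Low-fat feeding as such was shared by CON-LFD, DIO-LFD and DIO-VSG mice. A high-fat diet early in the study was shared by all but the CON-LFD mice. The cause of the zeros was not tested.

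**Figure D1:**
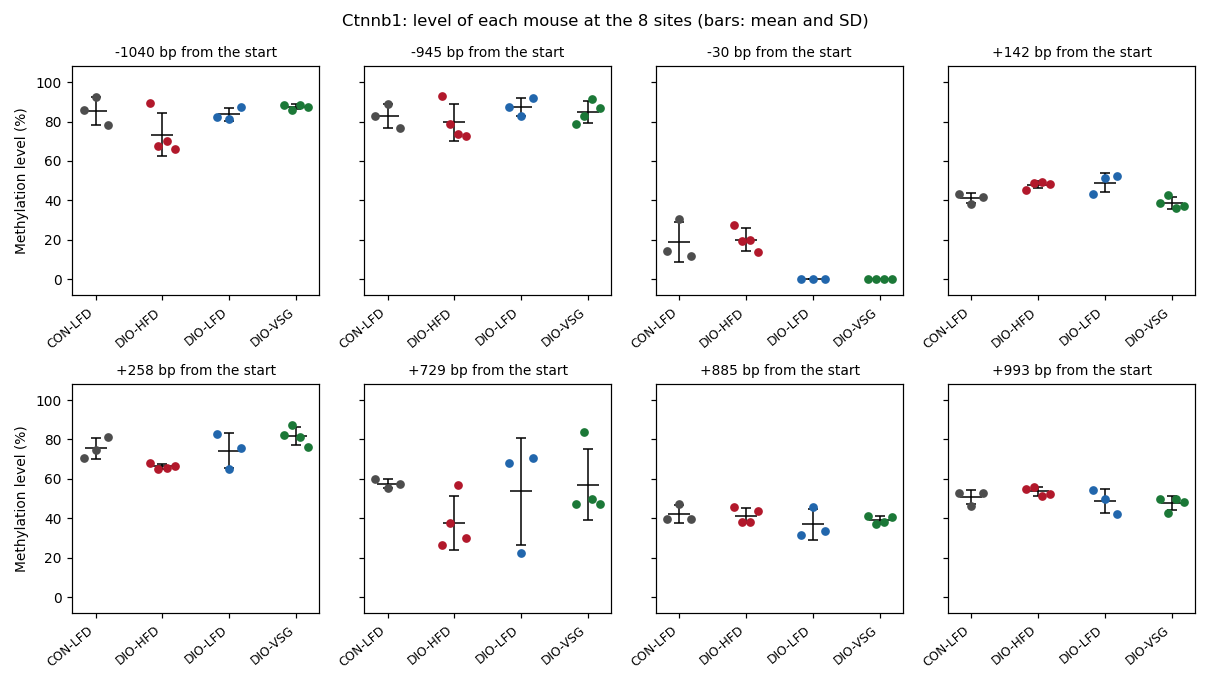
Methylation level in percent (vertical axis) of each mouse at the 8 Ctnnb1 sites, 1 panel a site with its distance from the transcript start, by group; points are mice, and bars show the mean and SD of the group. At -30 bp all DIO-LFD and DIO-VSG mice are at 0, and at the other 7 sites no mouse is under 22.2%.

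Of all 75761 sites, 22 are listed at 0 in all 7 mice of DIO-LFD and DIO-VSG. Only 1 of the 22, the Ctnnb1 promoter site, is above 0 in every CON-LFD and DIO-HFD mouse, and it was also the only such site when levels up to 1% or 5% counted as 0. The gene was chosen by its values in DIO-LFD, DIO-VSG and DIO-HFD mice, so this count describes the site and does not test it. At each of the other 21 sites at least 1 of the 7 CON-LFD and DIO-HFD mice was also at 0. The mean over those 7 mice was 19.5% at Ctnnb1. Over the other 21 sites the median of this mean was 0.799% and the highest was 22.6%, at a promoter CpG island site of Lpgat1 (chromosome 1, 191718036), an acyltransferase gene of phospholipid synthesis. There, DIO-HFD mice were at 58.6%, 39.4%, 30.3% and 0, and CON-LFD mice at 0, 29.7% and 0. The Lpgat1 site thus shares these zeros, but 3 of the 7 remaining mice were at 0 as well. Lpgat1 was named after its values were seen.

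The zeros were set beside sites of a similar level. Among tested promoter CpG island sites, 1692 had a mean of 10% to 30% over the CON-LFD and DIO-HFD mice. At 1369 of them (80.9%) no DIO-LFD or DIO-VSG mouse was at 0, and at 204 (12.1%) 1 mouse was. At 4 sites 6 of the 7 mice were at 0, and at 2 sites all 7 were, those of Ctnnb1 and Lpgat1. The zeros of Ctnnb1 led to its choice, so this too is a description and not a test of how rare such zeros are. Over the whole table, between 0.583% and 1.42% of sites were at 0 in a DIO-LFD or DIO-VSG mouse. In a CON-LFD or DIO-HFD mouse the share was between 0.309% and 0.837%. These ranges overlap, but the mean share was higher in the groups listed at 0 at Ctnnb1. It was 1.07% ± 0.366 (SD) in DIO-LFD and 0.864% ± 0.252 (SD) in DIO-VSG mice. In CON-LFD mice it was 0.660% ± 0.304 (SD), and in DIO-HFD mice 0.542% ± 0.162 (SD). The cause of the higher share was not tested.

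Over all 14 mice, the zeros included, the mean of the promoter site was 9.76%, and 8.20% of the 10403 promoter CpG island sites in the table had a mean that low. The median of their mean levels was 45.2%. These are the sites that the table holds and not all cytosines of promoter islands. The share therefore does not show how low the level is for promoter islands in general. The standard deviation of the promoter site across mice was 11.2 percentage points, a spread reached by 14.5% of these sites, with a median of 6.16.

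The other 7 sites were methylated in every mouse, with 98 levels between 22.2% and 92.9% and none at 0. Averaged over the 7 sites, CON-LFD mice had 62.2% ± 1.15 (SD, n = 3), and DIO-HFD mice had 57.1% ± 2.61 (SD, n = 4). DIO-LFD mice had 62.0% ± 4.35 (SD, n = 3), and DIO-VSG mice had 62.4% ± 2.52 (SD, n = 4). The average over all tested sites of the table was likewise lowest in DIO-HFD mice, at 59.7% beside 63.004% in CON-LFD, 63.1% in DIO-LFD and 64.6% in DIO-VSG mice. The 7 sites did not move one way: the mean of DIO-VSG minus DIO-HFD mice was positive at 4 of them and negative at +142, +885 and +993 bp. Across the 14 mice, the correlation of each of these sites with the promoter site ran from r = -0.545 at +258 bp to r = 0.522 at +885 bp. These correlations describe 14 libraries that the sites share.

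**Figure D2:**
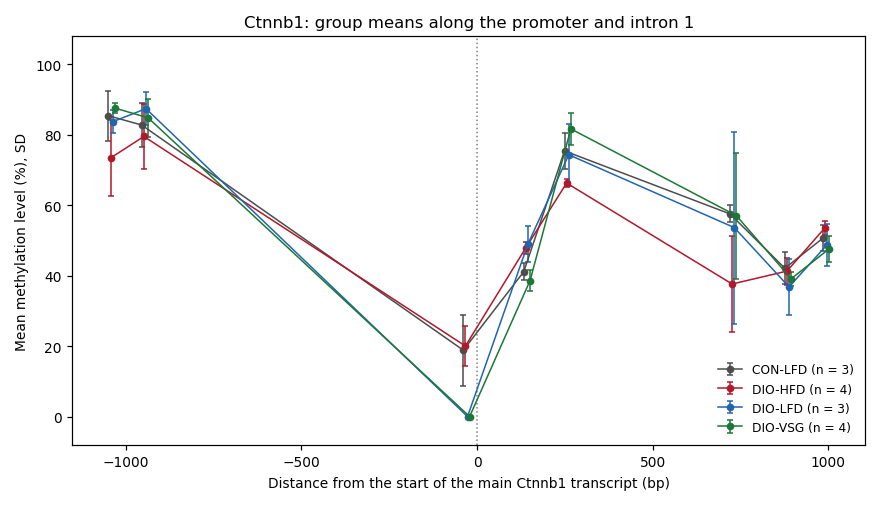
Mean methylation level in percent of each group (vertical axis, with SD) against the distance in bp from the start of the main Ctnnb1 transcript (horizontal axis); the dotted line marks the start and the points of the groups are shifted slightly sideways. Levels were lowest at -30 bp in all 4 groups, from 0 in DIO-LFD and DIO-VSG to 20.0% in DIO-HFD mice, and stood at 73.4% to 87.6% at -1040 bp.

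At -1040 bp the DIO-HFD mice were at 89.4%, 67.7%, 70.4% and 66.2%. CON-LFD mice were at 85.8%, 92.4% and 78.1%, DIO-LFD mice at 82.3%, 81.4% and 87.5%, and DIO-VSG mice at 88.5%, 85.7%, 88.6% and 87.6%. Replicates 2 to 4 of DIO-HFD lay below all other mice, while replicate 1 lay above 12 of the other 13. Averaged over all tested sites of the table, replicate 1 of DIO-HFD was at 66.2%, and replicates 2 to 4 were at 57.2%, 57.6% and 57.6%. The other 3 groups ranged from 60.6% to 65.2% in that average. Among DIO-HFD mice, replicate 1 was thus the highest both at this Ctnnb1 site and in the average. Outside that group the order differed: DIO-LFD replicate 1, with the average of 65.2%, was at 82.3% at this site. CON-LFD replicate 2, at 92.4%, had an average of 64.1%. The cause was not tested.

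The neighboring site at -945 bp had the same split in DIO-HFD mice, with 92.9% in replicate 1 and 79.0%, 73.6% and 72.7% in the others. CON-LFD mice ranged from 76.7% to 88.98%, DIO-LFD mice from 82.8% to 92.0% and DIO-VSG mice from 78.5% to 91.2%. All 4 groups overlapped here.

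At +142 bp, in exon 1, the DIO-HFD mice were at 45.5%, 48.7%, 49.4% and 48.3%, and the DIO-VSG mice at 38.6%, 42.9%, 36.05% and 37.0%. CON-LFD mice were at 43.1%, 38.4% and 41.9%, and DIO-LFD mice at 43.2%, 51.4% and 52.4%. The DIO-VSG mice lay below every DIO-LFD and every DIO-HFD mouse, while CON-LFD and DIO-VSG mice overlapped. Here DIO-VSG mice had the lowest mean and DIO-LFD mice the highest, 38.6% ± 3.005 (SD, n = 4) and 49.0% ± 5.02 (SD, n = 3). The gap between the highest DIO-VSG mouse, at 42.9%, and the lowest DIO-LFD mouse, at 43.2%, was narrow.

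At +258 bp, the DIO-HFD mice were tightly grouped at 67.8%, 65.2%, 65.5% and 66.7%. DIO-VSG mice were at 82.3%, 87.2%, 81.1% and 76.2%, and CON-LFD mice at 70.7%, 74.5% and 81.03%. DIO-LFD mice spread from 65.0% to 82.6%, with 75.4% between. DIO-HFD mice lay below every CON-LFD and every DIO-VSG mouse, the opposite direction to the promoter site for DIO-VSG mice, with means 15.4 percentage points apart. The site has the shortest distance to a next CCGG downstream of the 8, at 35 bp.

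The site at +729 bp varied most, with a standard deviation of 17.6 percentage points. DIO-LFD mice were at 68.1%, 22.2% and 70.7%, and DIO-VSG mice at 47.2%, 83.8%, 50% and 47.3%. DIO-HFD mice were at 26.3%, 37.7%, 56.7% and 29.8%, and CON-LFD mice at 60.0%, 55.2% and 57.4%. The range within DIO-LFD mice was wider than the distance between any group means.

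The last 2 sites varied least. At +885 bp the levels ran from 31.3% to 47.4%, with group means of 36.8% to 42.1%. At +993 bp they ran from 42.2% to 55.6%, with group means of 47.6% to 53.6%. Their standard deviations across the 14 mice, 0.0460 and 0.0421 as a fraction, fall under the minimum of 0.05 that the methods prescribe, and they were not tested. The member with the smallest value above the minimum was the site at +142 bp, at 0.0538. Of the 8 sites 6 passed, and the promoter site, at 0.112, passed through the groups in which it was methylated.

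The 5 other sites above the minimum were tested in comparisons other than those that led to the gene: CON-LFD against DIO-HFD, DIO-VSG against DIO-LFD, and each of DIO-LFD and DIO-VSG against CON-LFD. All of these share mice with the comparisons that led to the gene, so they are not independent of its choice. Levels b, as fractions, were turned into M = log2((b + 0.01)/(1 − b + 0.01)). Limma was fitted to the 65610 sites that reached the minimum, in all 14 mice, with the Benjamini-Hochberg adjustment over those sites. With an adjusted p under 0.05, 0 of the 5 sites were called in any of the 4 comparisons. Over all tested sites, that threshold called 0% for CON-LFD against DIO-HFD mice, 0.00305% between DIO-VSG and DIO-LFD mice, 0.00457% between DIO-LFD and CON-LFD mice and 0.00305% between DIO-VSG and CON-LFD mice. The sites with an unadjusted p under 0.05 numbered 0, 1, 0 and 0 of 5, where the shares over all tested sites were 7.76%, 3.98%, 2.81% and 2.86%.

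The site with the smallest p differed between comparisons. Between CON-LFD and DIO-HFD mice it was the one at -1040 bp, where M was 1.04 higher (SE 0.499, limma's adjusted p = 0.611) with a mean level 12.0 percentage points higher. Without DIO-HFD replicate 1 it was 1.51 higher (SE 0.372, limma's adjusted p = 0.0281), and 12.0% of all tested sites were then called in this comparison. With each mouse centred on its median M, the difference was 0.75 (SE 0.371, limma's adjusted p = 0.648) with all mice. Across all tested sites the median difference was 3.721 percentage points in the same direction. Between DIO-VSG and DIO-LFD mice it was the exon 1 site at +142 bp, with a difference in M of -0.60 (SE 0.260, limma's adjusted p = 0.945). The same site had the smallest p between DIO-LFD and CON-LFD mice, where M was 0.45 higher (SE 0.278, limma's adjusted p = 1). Between DIO-VSG and CON-LFD mice it was the site at +258 bp, where M was 0.53 higher (SE 0.361, limma's adjusted p = 0.979). None of these differences passed the threshold in the fit of all mice.

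Counted by overlap, CON-LFD mice lay wholly above DIO-HFD mice at 1 of the 5 sites (+258 bp) and wholly below them at 1 (+142 bp). Groups did not overlap at 4.68% of all tested sites in that comparison. DIO-VSG mice lay wholly below DIO-LFD mice at +142 bp, where the share over all tested sites was 7.74%, and DIO-LFD mice wholly above CON-LFD mice at the same site, where it was 7.05%. DIO-VSG and CON-LFD mice overlapped at all 5, with a share of 8.79% over all tested sites. These are counts of 5 neighboring sites in the same mice, and a call at 1 site is not independent of the next.

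In the comparisons that led to the gene, the values of the other 5 sites are a description only. DIO-LFD and DIO-HFD mice overlapped at all 5, and DIO-VSG and DIO-HFD mice did not at 2 of them, higher in DIO-VSG at +258 bp and lower at +142 bp. At +993 bp, a site under the minimum, DIO-VSG mice also lay below DIO-HFD mice, at 42.4% to 50% against 51.3% to 55.6%. Groups did not overlap at 4.8% of all tested sites for DIO-LFD against DIO-HFD mice and at 7.58% for DIO-VSG against DIO-HFD mice. The share called with an adjusted p under 0.05 was 0.00305% in each, and the share at an unadjusted p under 0.05 was 10.1% and 25% of all tested sites. The mean difference from DIO-HFD mice at the 7 sites other than the promoter site ran from -4.82 to 16.0 percentage points in DIO-LFD mice and from -9.31 to 19.4 in DIO-VSG mice, beside -20.0 at the promoter site in both. The median difference over all tested sites was 3.814 and 5.40 percentage points. The mean was higher than in DIO-HFD mice at 5 of the 7 other Ctnnb1 sites in DIO-LFD mice and at 4 of the 7 in DIO-VSG mice.

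Sites of other genes were ranked by the correlation of their level with that of the Ctnnb1 promoter site over the 14 mice. The 5 genes with the highest Pearson r were Zfand3 (r = 0.851), Cdk6 (r = 0.848), Gm43294 (r = 0.848), Rnf44 (r = 0.837) and Gm12198 (r = 0.826). They are the top of 65610 tested sites and are named for that, so no p is given. Each has a Spearman rho between 0.756 and 0.860, and by Spearman the highest site was one of Crb2 (rho = 0.890), a polarity gene of epithelia.

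The site nearest in level and pattern was that of Cdk6, the kinase that partners D-type cyclins in early cell-cycle entry (chromosome 5, 3341293, -2600 bp from the start in the table, in a CpG island). DIO-HFD mice had 19.9% ± 5.35 (SD, n = 4) there and CON-LFD mice 16.0% ± 14.6 (SD, n = 3). DIO-LFD mice were at 0 to 4.17% and all DIO-VSG mice at 0. Of the CON-LFD mice, 1 was at 0 at the Cdk6 site and so overlapped the DIO-LFD and DIO-VSG mice, which no CON-LFD mouse did at Ctnnb1. Every DIO-HFD mouse lay above the DIO-LFD and DIO-VSG mice at the Cdk6 site, as at Ctnnb1. The site of Zfand3 (chromosome 17, 30005380, in a promoter) had 17.2% ± 4.17 (SD, n = 4) in the DIO-HFD group, 0 to 17.6% in CON-LFD mice, 0 to 2.86% in DIO-LFD mice and 0 in all DIO-VSG mice.

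The other 3 similar sites had much higher levels. At Gm43294 (chromosome 6, 3585145) DIO-HFD mice had 95.5% ± 5.54 (SD, n = 4) and DIO-VSG mice 80.6% ± 4.19 (SD, n = 4). At Rnf44, which encodes a RING finger protein (chromosome 13, 54687214, in a promoter CpG island), these groups had 82.2% ± 10.5 (SD, n = 4) and 71.2% ± 5.19 (SD, n = 4). Without DIO-HFD replicate 1, at 98%, the difference of these means at Rnf44 was 5.76 in place of 11.01 percentage points, and the groups overlapped either way. At Gm12198 (chromosome 11, 50604374) DIO-HFD and DIO-VSG mice had 53.0% ± 3.41 (SD, n = 4) and 41.7% ± 3.19 (SD, n = 4). CON-LFD and DIO-LFD mice had means of 96.2% and 85.9% at Gm43294, 82.4% and 72.4% at Rnf44 and 58.6% and 41.5% at Gm12198. No mouse was under 37.5% at these 3 sites. At Gm43294 and Gm12198, as at Ctnnb1, every DIO-LFD and DIO-VSG mouse lay below every CON-LFD and DIO-HFD mouse. The highest DIO-LFD mouse was at 88.5% and the lowest DIO-HFD mouse at 88.7% at Gm43294. At Gm12198 they were at 45% and 48.6%.

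**Figure D3:**
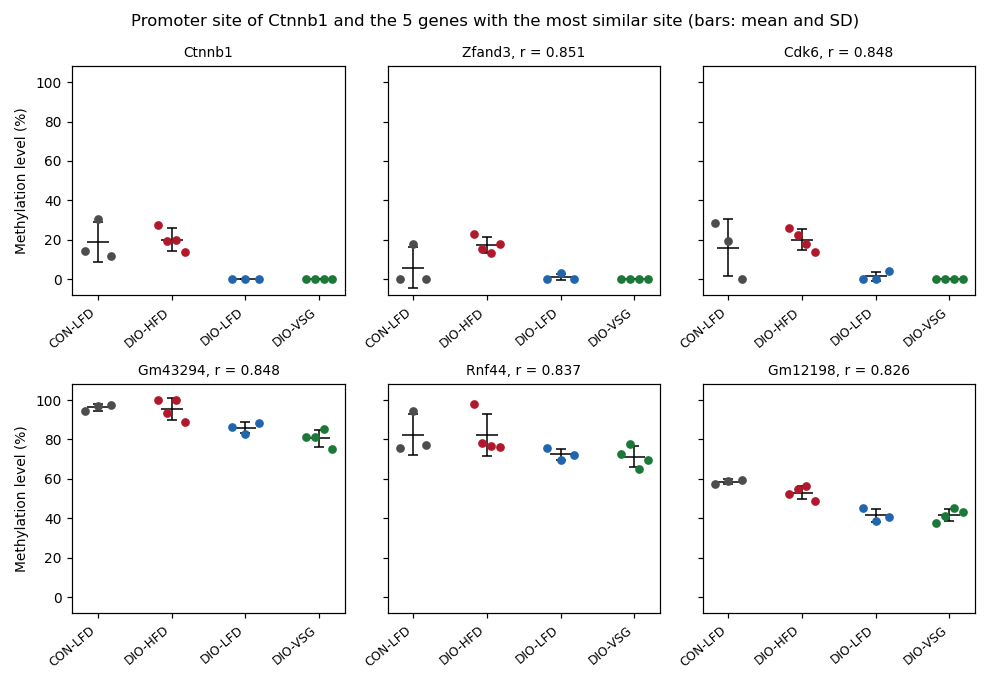
Methylation level in percent (vertical axis) of each mouse by group at the Ctnnb1 promoter site and at the sites of the 5 genes with the highest Pearson correlation with it over 14 mice, with r in each title; points are mice, and bars show mean and SD. Zfand3 and Cdk6 share the low range of Ctnnb1, while Gm43294, Rnf44 and Gm12198 stay above 37% in all mice.

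A list of 31 genes of the destruction complex, of nuclear partners of beta-catenin and of adherens junctions was set beside Ctnnb1. Of these, 19 genes had a tested site, with 149 sites in all: 6 of 12 destruction complex genes (70 sites), 7 of 9 nuclear partners (54 sites) and 6 of 10 junction genes (25 sites). Apc2, a relative of the scaffold Apc, and Bcl9l, a coactivator, hold 38 and 29 of the sites, so the counts lean on these genes. Limma called 0 of the 149 sites with an adjusted p under 0.05 in each of the 6 comparisons, where the shares over all sites are those given for the Ctnnb1 comparisons. Without DIO-HFD replicate 1, whose average level stands apart from its group, 25 partner sites (16.8%) were called for CON-LFD against DIO-HFD, 33 (22.1%) for DIO-LFD against DIO-HFD and 72 (48.3%) for DIO-VSG against DIO-HFD. Of all tested sites, 12.0%, 14.6% and 34.4% were called then.

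At an unadjusted p under 0.05, 13 of the 149 sites were counted for CON-LFD against DIO-HFD (8.72%, beside 7.76% of all tested sites), 8 higher and 5 lower in CON-LFD. For DIO-LFD against DIO-HFD there were 16 (10.7%, beside 10.1%), 10 higher and 6 lower in DIO-LFD. For DIO-VSG against DIO-HFD there were 45 (30.2%, beside 25%), 26 higher and 19 lower in DIO-VSG. Of all tested sites at that p, 77.3%, 78.5% and 80.6% were higher in CON-LFD, DIO-LFD and DIO-VSG than in DIO-HFD mice, beside 61.5%, 62.5% and 57.8% of the partner sites. The split depends on the scaling. With each mouse centred on its median M, 4 of 10, 10 of 17 and 10 of 35 partner sites were higher, beside 55.0%, 55.5% and 43.2% of all. In the comparisons without DIO-HFD mice there were 6 sites for DIO-VSG against DIO-LFD (4.03%, beside 3.98% of all), 5 for DIO-LFD against CON-LFD (3.356%, beside 2.81%) and 3 for DIO-VSG against CON-LFD (2.01%, beside 2.86%). The median difference of the partner sites was 2.92, 3.67 and 5.40 percentage points relative to DIO-HFD mice in CON-LFD, DIO-LFD and DIO-VSG mice, and 3.721, 3.814 and 5.40 over all tested sites.

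Of the partner genes, 9 have a site in a promoter CpG island, and the 6 whose nearest site to the start varied most are described. Gsk3a encodes a kinase that marks beta-catenin for degradation. Its site at chromosome 7, 25237807 was at 75%, 50%, 40% and 75.9% in DIO-HFD mice and at 47.6% to 56.5% in DIO-VSG mice. The level of Pygo2, which joins Bcl9 in the coactivator complex, was 80.5% to 100% over all mice at chromosome 3, 89430289. Cdh2, the neural cadherin, was near 0 at chromosome 18, 16809403, except for 20.0% in DIO-LFD replicate 1 and 18.4% in DIO-VSG replicate 1.

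Bcl9l binds beta-catenin as a coactivator, and its site at chromosome 9, 44498934 had a low level like that of the Ctnnb1 promoter site. CON-LFD mice were at 0, 2.50% and 4.48%, and DIO-HFD mice at 15.6%, 12.8%, 10.2% and 3.03%. DIO-LFD mice were at 13.2%, 19.0% and 10%, and DIO-VSG mice at 8.20%, 9.92%, 8.33% and 24.6%. The DIO-LFD and DIO-VSG mice, at 0 at Ctnnb1, were above the CON-LFD mice here. Over the 149 partner sites, DIO-LFD mice lay wholly above CON-LFD mice at 7 and wholly below at 3, and DIO-VSG mice above at 10 and below at 8, where 7.05% and 8.79% of all tested sites did not overlap. DIO-VSG mice lay wholly above DIO-LFD mice at 8 and wholly below at 13, beside 7.74% of all tested sites. Relative to DIO-HFD mice, CON-LFD mice lay above at 4 and below at 2, beside 4.68%. DIO-LFD mice did so at 5 and 1, beside 4.8%, and DIO-VSG mice at 10 and 2, beside 7.58%. Tcf7l1, a DNA-binding partner, was at 54.1% to 72.7% over all mice at chromosome 6, 72789305. Jup encodes plakoglobin, the closest relative of beta-catenin, and was at 39.4% to 56.1% at chromosome 11, 100397739. At Tcf7l1 and Jup all 4 groups overlapped.

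**Figure D4:**
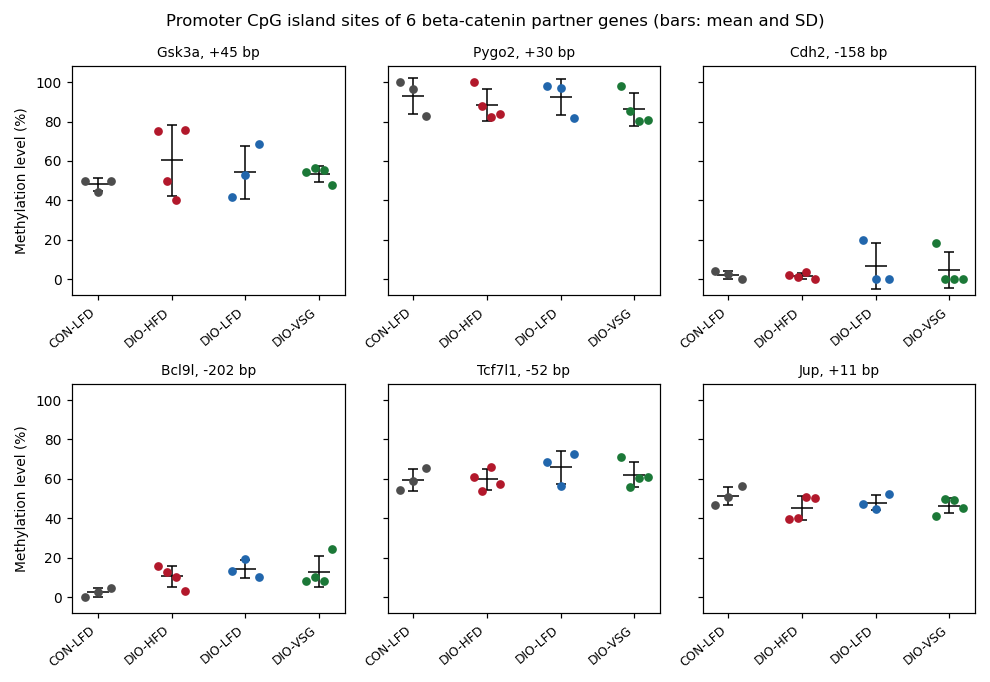
Methylation level in percent (vertical axis) of each mouse by group at the promoter CpG island site nearest to the transcript start in 6 beta-catenin partner genes, with the distance from the start in the table in each title; points are mice, and bars show mean and SD. In none of the 6 are all DIO-LFD and DIO-VSG mice at 0, and Cdh2 and Bcl9l have the lowest levels.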

How the data were processed

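Per the labels and the methods, DNA of the contralateral mammary fat pad was digested with MspI and bisulfite converted. Alignment (Bismark, mm10) and calling (methylKit) were done by the authors, who filtered sites of extreme coverage and left out 2 mice. The deposited level is a fraction per mouse, with no read counts, so levels could not be weighted by depth. Columns were matched to mice by the mouse number in the sample labels.

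Of 75761 sites, the 65610 whose standard deviation reached 0.05 were fitted with limma 3.58.1 in R 4.3.3 (M with an offset of 0.01, 4 groups in 1 model, no block, eBayes without trend), a test chosen here because the methods refer to earlier work for theirs. The fit was tested on simulated data. Means, overlaps and correlations were computed in Python 3.11.15 (NumPy 2.4.6, pandas 2.3.3) and figures in Matplotlib 3.10.9. Sequence was read from GRCm38.p6, the assembly of mm10, with samtools 1.23.1, and gene models from GENCODE M21.

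The gene, the partner list and the tests were chosen with earlier results of these data known. The text names every Ctnnb1 site, the 5 genes with the highest correlation with the promoter site, and 6 partner genes by the spread of their promoter CpG island site. Alternatives changed the offset of M, its scale (the level itself), the variance model (trend and robust eBayes), the samples fitted (2 groups only, or each mouse left out), centring on the median, the filter on the standard deviation, the level counted as 0, the measure of likeness and a replicate block.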

Additional observations from a re-analysis of the deposited data

Results flagged for a closer look

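In groups of 4 mice, Dixon's test compared the gap between an extreme mouse and the next, as a part of the group's range, with its critical value. Of 39 groups examined over the sites and averages named, 5 passed. About 1.95 would do so by chance if the sites had not been chosen by their spread or correlation, as those of the partner and similar genes were. At the Ctnnb1 site at +729 bp, DIO-VSG replicate 2 was at 83.8% against 47.2% to 50% in the other 3 (0.923 of the range). In the average over tested sites, DIO-HFD replicate 1 was at 66.2% against 57.2% to 57.6% (0.953). At Rnf44 the same mouse was at 98.0% against 76.0% to 78.1% (0.903). At Cdh2, DIO-VSG replicate 1 was at 18.4% against 0 in the other 3 (1). At Bcl9l, DIO-VSG replicate 4 was at 24.6% against 8.20% to 9.92% (0.895). The causes were not tested.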

How the results depend on the processing

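With 1 mouse left out, the number of the 5 other Ctnnb1 sites called was 0 to 1 for CON-LFD against DIO-HFD mice. Against DIO-HFD mice, partner sites called ranged from 0 to 25 in CON-LFD mice, from 0 to 33 in DIO-LFD mice and from 0 to 72 in DIO-VSG mice. The highest values were each without DIO-HFD replicate 1, which also brought the calls over all tested sites to 12.0%, 14.6% and 34.4%, beside 16.8%, 22.1% and 48.3% of the partner sites. Without CON-LFD replicate 2, or with only the 2 groups compared, 1 partner site of 149 was called for DIO-LFD against DIO-HFD mice. Of all tested sites, 0.00914% and 0.0244% were called in these settings. With each mouse centred on its median level, the promoter site in DIO-VSG mice minus DIO-HFD mice was -27.7 in place of -20.0 percentage points. The centred split of partner sites by direction and the Rnf44 difference without DIO-HFD replicate 1 were added after seeing the data. With Spearman's rho in place of Pearson's r, the most similar site was at 0.890 (Crb2) in place of 0.851 (Zfand3). Mice with the same replicate number share only that number: their deviations from the group means correlated at r = -0.0804 to 0.202 over 19 pairs. With a replicate block the difference in M at -1040 bp between CON-LFD and DIO-HFD mice was 0.94 (SE 0.543). The 5 sites gave 0 calls in each of the 4 comparisons, and no call changed among the Ctnnb1 and partner sites. Over all tested sites, the block brought the calls to 0 from 2 between DIO-VSG and DIO-LFD mice. They also went to 0 from 3 between DIO-LFD and CON-LFD and from 2 between DIO-VSG and CON-LFD mice. The minimum standard deviation of 0.1 leaves 1 of the 5 other sites, and without a minimum 7 were tested. The causes of these shifts were not tested. The unknown read depth limits every level, and a level listed as 0 may rest on few reads.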
